A study of Mus musculus with 11 samples.

Results

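Divergent promoters of 2 protein-coding genes were examined in the accessible chromatin of MPC2 cells. A pair was formed by 2 protein-coding genes of the GENCODE annotation on opposite strands of the mm10 mouse genome, with starts at most 1000 bp apart and the start of the minus-strand gene at the lower coordinate, so that both genes are read away from a shared stretch. The annotation held 755 such pairs, which took up 1489 of 21951 coding genes (6.78%). A member was any accessible region that overlapped the stretch between both starts. Of 94963 regions in the list, 673 (0.709%) were members, and they lay at 688 of the 755 pairs. The rule used gene positions only, not the level of the regions.

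Open chromatin had been profiled by ATAC-seq, an assay that uses the Tn5 transposase to cut accessible DNA and tag it with sequencing adapters. MPC2 is 1 conditionally immortalised mouse mesenchymal clone that is grown at a permissive temperature and then shifted to osteogenic medium, and all groups shared this origin with no gene edited. The 11 cultures were 3 MSC (undifferentiated) cultures with vehicle (DMSO), 3 MSC cultures with 50 uM FG-4592, 2 osteocyte cultures (3 weeks of differentiation) with vehicle and 3 osteocyte cultures with 50 uM FG-4592, each exposed for 48 hours to vehicle or to the drug, which inhibits the HIF prolyl hydroxylases. The list held 1 value per region, read as the mean log2 CPM (read counts relative to each library's total) over all cultures, so no group could be compared with another and no value below has a replicate error.

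Many mammalian promoters start transcription in both directions, and at a divergent gene pair both directions yield a messenger RNA. Such pairs usually lie in CpG islands, mostly lack a TATA box, and are known to be common among genes for DNA repair and for mitochondrial function. ATAC-seq shows such a promoter as an interval free of nucleosomes, flanked by the first nucleosomes of each gene.

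The stretches between the starts are shown for 17 pairs, as the plus strand of mm10 from 5′ to 3′ without the start bases. Capitals mark CCAAT (the core bound by NF-Y), GGGCGG (SP and KLF factors), CCGGAA (ETS factors), AAGATGGCG (YY1), CGCATGCG (NRF1), TGACGTCA (CREB and ATF factors) and the palindrome CTCGCGAG, on either strand. A marked word is a match of letters and not a measured binding site. In none of these stretches did an annotated exon overlap. The first 6 were chosen for CCAAT words, which were more frequent at divergent pairs than at single promoters, and 2 short stretches with CCGGAA follow.
Xrcc3/Zfyve21, chr12:111813874-111814169: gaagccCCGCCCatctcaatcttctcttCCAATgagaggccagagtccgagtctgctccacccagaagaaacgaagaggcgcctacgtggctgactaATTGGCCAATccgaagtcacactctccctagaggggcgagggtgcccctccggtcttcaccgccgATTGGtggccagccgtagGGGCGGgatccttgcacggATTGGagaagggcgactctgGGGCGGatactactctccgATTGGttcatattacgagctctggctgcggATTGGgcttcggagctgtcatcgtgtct
Mrps12/Sars2, chr7:28741821-28741991: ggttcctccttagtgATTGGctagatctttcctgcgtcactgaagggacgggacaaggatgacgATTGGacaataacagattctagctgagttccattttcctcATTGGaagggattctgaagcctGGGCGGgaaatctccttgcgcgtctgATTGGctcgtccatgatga
Tepsin/Ndufaf8, chr11:120098732-120098927: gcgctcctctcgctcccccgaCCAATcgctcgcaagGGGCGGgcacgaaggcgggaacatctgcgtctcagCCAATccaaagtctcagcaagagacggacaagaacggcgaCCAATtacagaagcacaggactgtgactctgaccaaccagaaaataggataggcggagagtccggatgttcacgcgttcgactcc
Hist1h2ac/Hist1h2bc, chr13:23683949-23684198: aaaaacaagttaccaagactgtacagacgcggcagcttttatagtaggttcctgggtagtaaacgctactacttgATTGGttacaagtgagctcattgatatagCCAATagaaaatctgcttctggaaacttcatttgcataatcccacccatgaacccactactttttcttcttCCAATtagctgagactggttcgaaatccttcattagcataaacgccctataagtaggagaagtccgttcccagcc
Brca1/Nbr1, chr11:101551956-101552148: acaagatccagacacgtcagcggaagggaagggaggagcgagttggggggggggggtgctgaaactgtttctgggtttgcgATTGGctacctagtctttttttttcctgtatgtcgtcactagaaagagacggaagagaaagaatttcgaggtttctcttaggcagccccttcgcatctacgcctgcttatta
Rpl36al/Mgat2, chr12:69184084-69184156: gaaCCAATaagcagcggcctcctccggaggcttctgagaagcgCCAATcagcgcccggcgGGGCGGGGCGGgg
Mrps18b/Ppp1r10, chr17:35916390-35916433: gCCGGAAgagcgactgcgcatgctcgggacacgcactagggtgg
Mrpl50/Zfp189, chr4:49521094-49521175: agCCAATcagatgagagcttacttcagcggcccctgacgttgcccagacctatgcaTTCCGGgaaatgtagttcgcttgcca

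The next 5 stretches belong to pairs with the highest levels among those at most 300 bp apart, and 3 belong to pairs with the lowest levels. In the last, Fam162a/Ccdc58, the capitals mark instead the hypoxia response element core, ACGTG or GCGTG, because Fam162a is a hypoxia-induced gene.
Usp5/Cdca3, chr6:124829485-124829546: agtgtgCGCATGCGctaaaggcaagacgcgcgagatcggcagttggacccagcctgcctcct
Cdca2/Kctd9, chr14:67715842-67715936: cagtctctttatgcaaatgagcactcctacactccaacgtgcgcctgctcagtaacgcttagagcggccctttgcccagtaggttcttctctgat
Zfp91/Lpxn, chr19:12796127-12796192: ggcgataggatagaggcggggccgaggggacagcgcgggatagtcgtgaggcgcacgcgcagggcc
Nfya/Oard1, chr17:48409907-48410013: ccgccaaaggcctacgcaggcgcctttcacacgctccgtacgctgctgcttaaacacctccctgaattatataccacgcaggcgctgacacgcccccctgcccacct
Mob3a/Izumo4, chr10:80701978-80702183: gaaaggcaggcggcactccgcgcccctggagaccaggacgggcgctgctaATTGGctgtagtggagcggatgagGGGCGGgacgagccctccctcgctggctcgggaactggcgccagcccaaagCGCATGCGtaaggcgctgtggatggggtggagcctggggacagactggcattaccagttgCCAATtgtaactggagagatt
Nr2e1/Ostm1, chr10:42583633-42583821: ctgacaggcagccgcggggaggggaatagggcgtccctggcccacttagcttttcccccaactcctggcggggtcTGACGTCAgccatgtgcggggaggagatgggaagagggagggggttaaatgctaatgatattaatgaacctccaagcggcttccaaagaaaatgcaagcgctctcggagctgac
Gpc2/Stag3, chr5:138280006-138280239: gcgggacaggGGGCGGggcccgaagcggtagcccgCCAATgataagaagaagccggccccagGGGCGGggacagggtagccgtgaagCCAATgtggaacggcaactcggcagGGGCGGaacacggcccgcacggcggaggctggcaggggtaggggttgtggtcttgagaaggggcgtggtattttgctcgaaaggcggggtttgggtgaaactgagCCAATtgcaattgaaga
Col4a4/Col4a3, chr1:82586850-82586920: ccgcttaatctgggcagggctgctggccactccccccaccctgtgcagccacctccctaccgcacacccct
Fam162a/Ccdc58, chr16:36071595-36071684: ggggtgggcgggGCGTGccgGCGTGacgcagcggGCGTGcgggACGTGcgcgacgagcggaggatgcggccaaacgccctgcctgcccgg

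Most divergent pairs carried an accessible region in the list used here. Whether that list holds every region of these cells is not known, so a pair without a region is not shown to be closed. A region overlapped the stretch at 688 of 755 pairs, or 91.1% (95% Wilson interval 88.9% to 92.95%, which covers counting error only). By comparison, 84.7% (83.8% to 85.5%) of 6755 single CpG-rich coding starts and 28.5% (27.7% to 29.3%) of 12801 single CpG-poor coding starts had a region over the start or within 200 bp upstream of it. A single start was in no pair and had no coding start on the opposite strand within 1000 bp, and CpG-rich meant a GC content of at least 55% with an observed over expected CpG ratio of at least 0.6 in the surrounding 1 kb. Among the nuclear pairs, 552 of 754 (73.2%) met the same limits around the middle of the stretch, against 34.5% of single coding starts. CpG-rich pairs had a region in 96.6% of cases (94.7% to 97.8%) and the other pairs in 76.7% (70.4% to 82.0%). The pairs counted here include 21 genes that belong to more than 1 pair, mostly through readthrough or duplicate gene records, and the 755 pairs made up 734 separate loci.

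Members were among the most accessible regions of the list. Their median level was 5.61 log2 CPM (95% exact binomial interval of the median 5.51 to 5.69), with the middle 50% of members between 5.02 and 6.19, the lowest at 0.66 and the highest at 7.89, while the whole list had a median of 2.12. Of the 673 members, 542 (80.5%) were in the top 10% of the list by level and 118 (17.5%) in the top 1%, and 4 lay below the list median. The members were 0.709% of regions and held 3.71% of the summed CPM. They were also wide, with a median of 1299 bp against 460 bp for the list and a range from 225 to 2501 bp. A wider region collects more cuts, and over the members width and level went together (Spearman rho of 0.60, a description across 673 regions that share the same libraries). The level per kb of region, which divides by the width, had a median of 5.21 log2 CPM per kb in members and 3.25 in the list.

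Divergent promoters stood somewhat above single CpG-rich promoters, and close to other promoters that are read in both directions. Regions at single CpG-rich starts had a median level of 5.35 log2 CPM (5.32 to 5.38, 5655 regions), 0.26 below the members (0.11 with single promoters of at least 60% GC and a CpG ratio of at least 0.75, and 0.16 with starts at most 300 bp apart), and a median of 4.99 log2 CPM per kb. At single CpG-poor starts the median level was 4.35 (3573 regions). Split by the same CpG limits, the 533 CpG-rich pairs with a region had a median of 5.69, or 0.35 above CpG-rich singles, and the 155 CpG-poor pairs 5.26, or 0.91 above CpG-poor singles. Where a single CpG-rich start had a noncoding gene starting divergently within 1000 bp, the median was 5.62 (5.47 to 5.73, 456 regions), against 5.33 (5.30 to 5.36, 5199 regions) where it had none. Pairs of coding genes whose starts overlap, with the plus-strand start at the lower coordinate, had a median of 5.57 (5.43 to 5.67, 393 regions). The 3 kinds of promoter with 2 divergent or overlapping annotated starts therefore had medians within each other's intervals. The classes overlapped widely, since 38.5% of the single CpG-rich regions lay above the members' median. With 1 pooled value per region, none of these differences has a test.

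**Figure D1:**
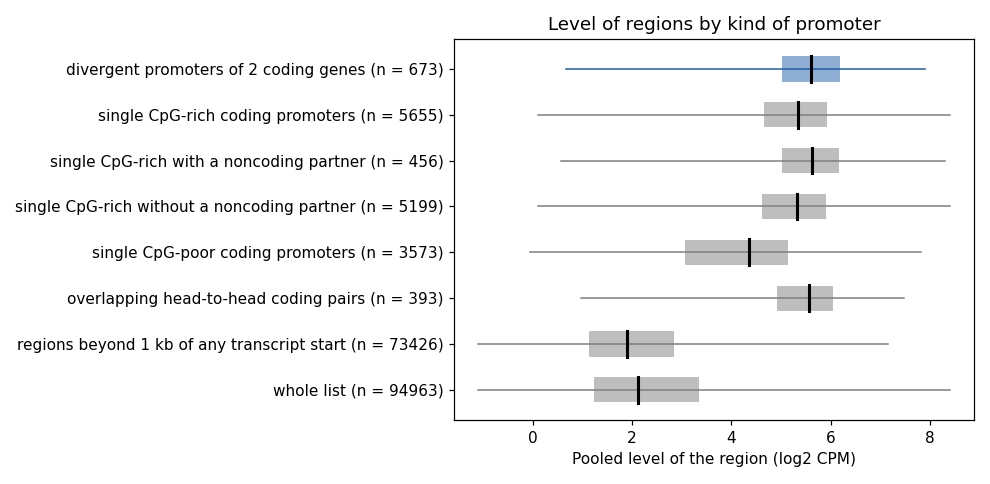
Pooled level in log2 CPM (horizontal axis) of the regions of each kind of promoter, of regions beyond 1 kb of any transcript start and of the whole list. Black bars are medians, boxes quartiles, and thin lines run from the lowest to the highest region; the members (blue) have a median of 5.61 and single CpG-rich promoters 5.35.

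Part of the gap went along with width. When members and single CpG-rich regions were set side by side in 20 bins of width with equal counts, the mean of the bin differences in medians, weighted by the number of members, was 0.15 log2 CPM, with members higher in 16 of 20 bins. The bins in which members lay below were among those from 889 to 1426 bp, and members were higher by 0.44 to 0.61 in the 3 bins below 889 bp (14 to 22 members each) and by 0.21 to 0.46 in the 5 bins from 1485 bp. When regions were compared in 20 bins of their number of CpGs, a comparison added after the values were seen, members were 0.52 higher and stood above in 18 of 20 bins. In the lowest bin, with up to 46 CpGs, members were 2.70 higher, and without that bin the difference was 0.32. Members held a median of 85 CpGs and single CpG-rich regions 90. Single CpG-rich regions were chosen for CpG content and members were not, and width was not held equal in these bins. The comparison in CpG bins therefore does not separate the number of CpGs from width.

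**Figure D2:**
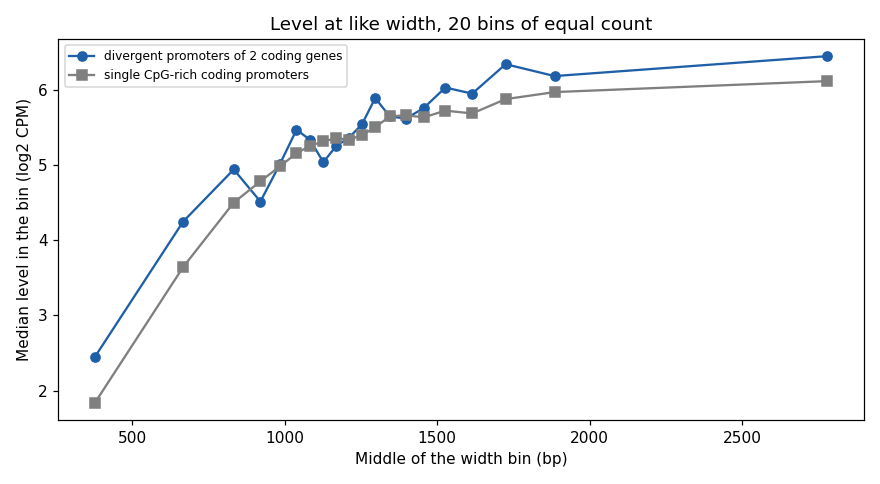
Median level in log2 CPM (vertical axis) of divergent promoters (blue circles) and single CpG-rich promoters (grey squares) in 20 bins of region width (horizontal axis, middle of the bin in bp). Both rise with width, and the divergent promoters lie higher in 16 of the 20 bins, with a weighted difference of 0.15.

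The level of a divergent promoter varied with the distance between the starts. The distance had a median of 129 bp with quartiles of 67 and 240 bp, and 619 pairs (82.0%) had starts at most 300 bp apart. Counting each locus once, pairs with starts 1 to 50 bp apart had a median level of 5.10 log2 CPM (5.00 to 5.26, n = 117). The median was 5.37 at 51 to 100 bp (n = 168), 5.81 at 101 to 200 bp (n = 182) and 5.92 at 201 to 300 bp (n = 84). It was 6.09 at 301 to 500 bp (5.90 to 6.25, n = 63) and 6.02 at 501 to 1000 bp (n = 55), so the medians rose with each bin up to 301 to 500 bp. In the same order of distance, the median level per kb over all pairs was 4.83, 5.02, 5.33, 5.46, 5.48 and 5.33 log2 CPM per kb, while the median width grew from 1227 to 1594 bp.

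Closely spaced pairs were no higher than single CpG-rich promoters. The pairs were not split by CpG content for this comparison, and single CpG-poor regions had a median of 4.35 log2 CPM. The 285 loci with starts at most 100 bp apart had a median of 5.26 log2 CPM (5.13 to 5.33), beside 5.35 in single CpG-rich regions, and 43.9% (38.2% to 49.7%) of them lay above the single median. The 384 loci with starts over 100 bp apart had a median of 5.90 (5.80 to 5.98), 0.55 above the single promoters, and 72.9% (68.3% to 77.1%) of them lay above. Within each of 4 quartile groups of width the farther pairs were also higher, by medians of 4.94 against 4.73 in the narrowest group, 5.55 against 5.11, 5.97 against 5.48, and 6.32 against 5.68 in the widest. Across all 669 loci the Spearman rho between distance and level was 0.37 (Pearson r of 0.29 with log2 distance). It was 0.09 among the 168 narrowest regions and 0.33, 0.37 and 0.38 in the wider groups, 0.41 at CpG-rich and 0.34 at CpG-poor middles, and 0.38 without chromosome 16, whose regions stood higher. These coefficients describe regions that share the same libraries and differ in base composition, and 100 bp was chosen after the values were seen.

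The same comparison was made at other start pairs. At 461 CpG-rich coding starts with a divergent noncoding partner, the median was 5.47 at 1 to 50 bp, 5.26 at 51 to 100 bp, 5.73 at 101 to 200 bp, 5.79 at 201 to 300 bp, 5.93 at 301 to 500 bp and 5.61 at 501 to 1000 bp (n = 32 in the last, Spearman rho of 0.19). At pairs with overlapping starts the level did not follow the length of the overlap (rho of 0.01, n = 389), with medians between 5.43 and 5.69 in every bin. In those pairs no stretch lies between the starts.

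**Figure D3:**
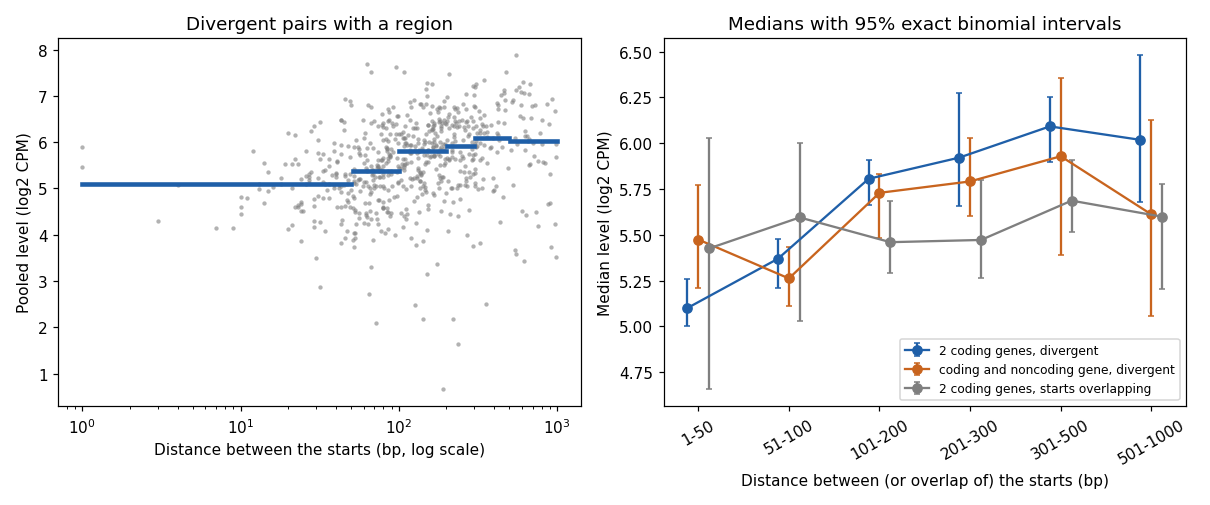
Left, pooled level in log2 CPM of the region at each divergent locus against the distance between the starts in bp (log scale), with the median of each distance bin as a blue line. Right, medians with 95% exact binomial intervals for divergent coding pairs (blue), coding and noncoding pairs (orange) and overlapping coding pairs by length of overlap (grey); the blue medians rise from 5.10 to 6.09 and the grey ones stay between 5.43 and 5.69.

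A single region usually spanned the whole divergent promoter. At 666 of 688 pairs (96.8%, 95.2% to 97.9%) the region covered both starts, at 21 pairs it covered 1 start, and at 1 pair neither. Up to a distance of 100 bp it covered both in every pair with a region, and at 501 to 1000 bp in 70.2% of 57 pairs. From the starts it reached a median of 539.5 bp into the minus-strand gene and 560 bp into the plus-strand gene, with quartiles of 420 and 712 bp and of 413 and 731 bp. At 345 of 666 pairs (51.8%, 48.0% to 55.6%) the longer arm lay on the plus-strand gene, so neither annotated strand was favoured. Within a pair the arms differed more than these medians, with a median of 707 bp for the longer arm and 447.5 bp for the shorter. The middle of the region lay between both starts at 33.7% of the 688 pairs. At single CpG-rich starts the region reached a median of 717 bp downstream and 456 bp upstream (5658 starts). Those arms are ordered by direction and not by length.

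Only 4 pairs had 2 regions, 1 over each start, and all had starts over 500 bp apart. The region over Foxa3, a liver and gut transcription factor, had 2.38 log2 CPM and that over Sympk, a scaffold of messenger RNA 3′ end processing, had 5.55. At Tas1r1/Nol9 the taste receptor gene Tas1r1 had 1.44 and Nol9, an RNA kinase of ribosomal RNA processing, had 4.19. At Cfap52/Stx8 the cilia gene Cfap52 had 2.90 and the syntaxin gene Stx8 3.67. In each of the 4 pairs the region over the plus-strand gene was the wider and the higher.

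The highest divergent promoters belonged to genes of varied function. The region at Srgap2/Fam72a (chr1:131526365-131528434, starts 551 bp apart) had 7.89 log2 CPM and ranked 6 in the whole list. Srgap2 encodes a GTPase-activating protein that shapes membranes in migrating cells. Usp5/Cdca3, a deubiquitinase and a regulator of mitotic entry, had 7.69 over 1499 bp. Cdca2/Kctd9 had 7.63 over 1830 bp, and Cdca2 (Repo-Man) recruits a phosphatase to chromatin at the end of mitosis. Zfp91/Lpxn, a ubiquitin ligase and a focal adhesion protein of the paxillin family, had 7.52 over 2308 bp. Gamt/Dazap1, an enzyme of creatine synthesis and an RNA-binding protein, had 7.51 over 1458 bp. Nfya/Oard1, a subunit of the CCAAT-binding factor NF-Y and an ADP-ribose deacylase, had 7.51 over 1801 bp. Mob3a/Izumo4 had 7.48 and Zfp654/Cggbp1, on chromosome 16, had 7.35. Per kb of region these 8 pairs had 6.32 to 7.11 log2 CPM, so they stood above the members' median of 5.21 on that scale too. Usp5/Cdca3, Cdca2/Kctd9 and Zfp91/Lpxn had starts less than 100 bp apart and were thus far above the median of closely spaced pairs, and of the 7 marked words their printed stretches held 1, the NRF1 word at Usp5/Cdca3.

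The widest regions were found at Zbtb25/Zbtb1 (2501 bp, 7.05 log2 CPM), Uqcrh/Lrrc41 (2490 bp, 6.40), Ift80/Smc4 (2406 bp, 6.07), Hnrnpa2b1/Cbx3 (2360 bp, 6.92) and Zfp91/Lpxn (2308 bp, 7.52). Uqcrh encodes a subunit of respiratory complex III, Smc4 a core subunit of condensin, and Cbx3 a heterochromatin protein. The excess width lay on 1 side at some of them. At Uqcrh/Lrrc41 the region reached 300 bp into Uqcrh and 1991 bp into Lrrc41, and at Ift80/Smc4 it reached 385 bp into Ift80 and 1852 bp into Smc4. At Hnrnpa2b1/Cbx3 the arms were 995 and 898 bp.

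The 4 lowest members were short regions. Nr2e1/Ostm1 (starts 190 bp apart) had 0.66 log2 CPM over 225 bp. The region covered the start of Nr2e1, a nuclear receptor of neural stem cells, and did not reach that of Ostm1, whose product is the partner of a chloride transporter in osteoclast bone resorption. The region over Tas1r1 had 1.44 over 256 bp. Gpc2/Stag3, a glypican and a cohesin subunit of meiosis, had 1.63 over 400 bp, and its stretch held 3 CCAAT and 3 GGGCGG words. Col4a4/Col4a3, collagen chains of specialised basement membranes, had 2.09 over 531 bp and none of the marked words in its stretch. Per kb, Nr2e1/Ostm1, Gpc2/Stag3 and Col4a4/Col4a3 had 2.81, 2.95 and 3.00 log2 CPM, below the list median of 3.25, while the region over Tas1r1 had 3.40.

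**Figure D4:**
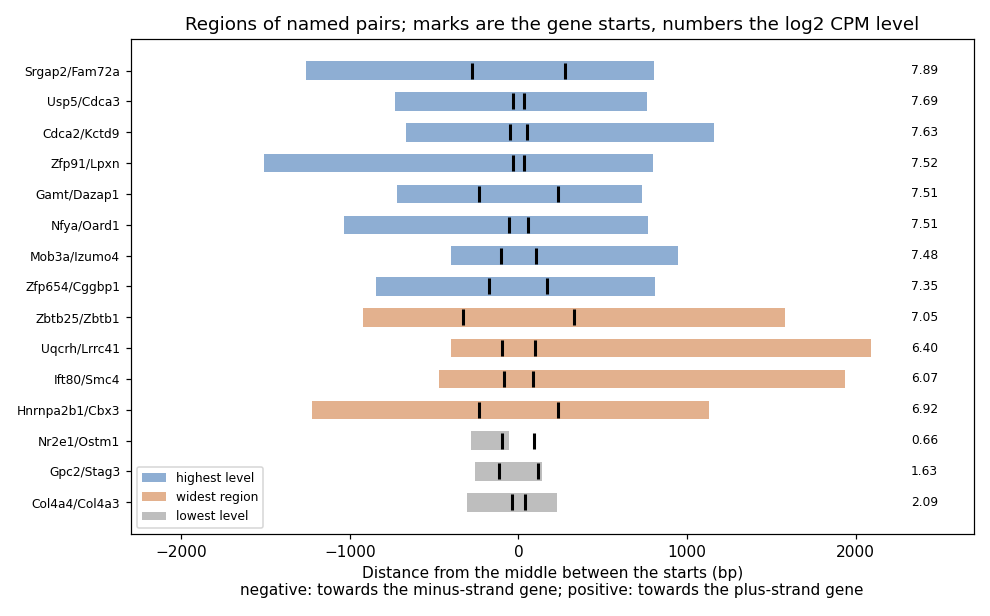
Extent of the accessible region (bars) at the 8 pairs of highest level, the pairs with the widest regions and 3 of the lowest members, in bp from the middle between the starts (horizontal axis, positive towards the plus-strand gene). Black marks are the gene starts and the numbers the level in log2 CPM; the low regions are short, and that of Nr2e1/Ostm1 covers the Nr2e1 start alone.

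Divergent promoters held CCAAT and CCGGAA more often than single CpG-rich promoters did. In windows of 300 bp around the middle of 733 loci, CCAAT was present on either strand in 44.5% (40.9% to 48.1%), against 36.1% (35.0% to 37.3%) of windows from 250 bp upstream to 50 bp downstream of 6755 single CpG-rich starts and 39.0% of all 21938 coding promoters. CCGGAA was present in 40.8% (37.3% to 44.4%) against 24.4% (23.4% to 25.4%), and in 17.5% of all coding promoters. AAGATGGCG, the YY1 word, was present in 5.59% (4.15% to 7.50%) against 2.49%, and in 1.70% of all, but in the stretch between the starts alone it was in 0.95% against 0.58%. GGGCGG went the other way, with 67.5% (64.1% to 70.8%) against 76.7% (75.7% to 77.7%), and 43.0% of all. Single CpG-poor starts held CCAAT in 40.3%, CCGGAA in 10.1% and GGGCGG in 21.4% of windows. The divergent loci were not limited to CpG-rich ones, and their shares were not split by CpG content. The lower GGGCGG share therefore cannot be told apart from this unlike CpG content. In the stretch between the starts alone, beside upstream stretches of like length at single CpG-rich starts, CCAAT was in 38.6% against 25.9%, CCGGAA in 24.1% against 14.6% and GGGCGG in 53.9% against 57.3%, a difference for GGGCGG of -3.37 points with an interval of -6.99 to 0.21 from the Wilson bounds of the divergent share.

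The other words differed less. CGCATGCG was in 5.18% of divergent windows against 4.23% of single CpG-rich ones (2.61% of all coding promoters), TGACGTCA in 4.50% against 3.66% (2.43% of all) and CTCGCGAG in 3.82% against 2.41% (1.21% of all). The E-box CACGTG was in 10.9% against 11.6% (7.75% of all) and the TATA word TATAAA in 4.50% against 5.33% (12.6% of all). The AP-1 word TGANTCA was in 3.55% against 3.21% (6.91% of all), and ACTACAATT, the ZNF143 word, in 0.82% against 0.43% (0.50% of all). The hypoxia response element core, ACGTG or GCGTG, which the E-box contains, was in 68.9% against 69.3%, and in 47.6% of all. For each of these except CTCGCGAG, the share at single CpG-rich starts lay inside the interval at divergent loci. Windows were placed differently in each class, around a middle or upstream of a start, and 50.1% of the divergent window bases lay between the starts.

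CCAAT lay mostly between the starts, whereas CCGGAA was placed about as the bases of the windows were. Of 589 CCAAT words in the divergent windows 80.5% (77.1% to 83.5%) were between the starts, whereas 64.4% of 1037 GGGCGG words and 45.8% (41.1% to 50.5%) of 428 CCGGAA words were. In the 295 stretches of 101 to 300 bp, the 291 CCAAT words had a median distance of 52 bp to the nearer start (quartiles 30 and 76 bp) and of 142 bp to the farther one. Both orientations occurred about equally, with 50.9% of CCAAT and 51.6% of CCGGAA words on the plus strand. At Xrcc3/Zfyve21 the printed stretch held 7 CCAAT words, and at Mrps12/Sars2 it held 4.

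Up to 300 bp the shares of CCAAT and CCGGAA changed with distance in opposite directions. The part of the 300-bp window between the starts grows with distance, and CCAAT lay mostly in that part. The changes in share therefore cannot be told apart from this placing of the window. Beyond 300 bp the 300-bp window around the middle reaches neither start, so the shares there describe the middle of the stretch and are not comparable with those of closer pairs. CCAAT was in 26.0% (19.1% to 34.4%) of windows with starts 1 to 50 bp apart, in 59.6% (49.5% to 68.9%) at 201 to 300 bp, in 56.9% at 301 to 500 bp and in 41.2% (30.3% to 53.0%) at 501 to 1000 bp. CCGGAA went from 55.3% (46.5% to 63.8%) at 1 to 50 bp to 33.0% (24.3% to 43.0%) at 201 to 300 bp, 23.1% at 301 to 500 bp and 8.82% at 501 to 1000 bp. Levels moved along. Loci with CCAAT had a median of 5.87 log2 CPM (n = 294) and those without 5.36 (n = 375), while loci with CCGGAA had 5.47 (n = 288) and those without 5.69 (n = 381). Within each of the 6 distance bins loci with CCAAT were the higher, by 0.17 to 0.44, and the Spearman rho between distance and level was 0.32 with CCAAT and 0.34 without. The part of either word in the level was not tested.

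**Figure D5:**
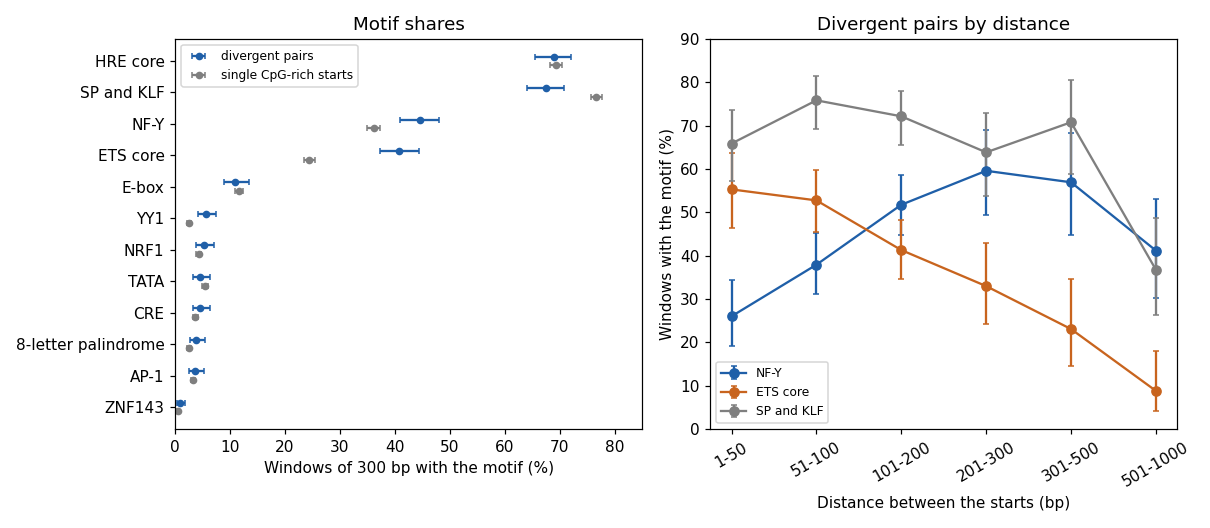
Left, share of 300-bp windows in % (horizontal axis) that hold the word of each named factor, at divergent loci (blue) and single CpG-rich starts (grey), with 95% Wilson intervals. Right, the share for NF-Y, ETS and SP or KLF words at divergent loci by distance between the starts. The NF-Y word goes from 26.0% to 59.6% at 201 to 300 bp and back to 41.2% at 501 to 1000 bp. The ETS word goes from 55.3% down to 8.82%. The part of the window between the starts grows with distance, and beyond 300 bp the window reaches neither start.

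Genes of DNA repair and replication were often found in a divergent pair, 29 of 105 on the list used here (27.6%, 19.97% to 36.8%) against 6.78% of all coding genes. Some genes had been put on that list because they are known for a head-to-head neighbour, so its share is a description. Regions lay at 28 of their 30 pairs, with a median of 5.57 log2 CPM and a range from 3.50 to 7.01. The recombination gene Xrcc3, paired with Zfyve21, had 7.01, and Brca1, paired with the autophagy receptor gene Nbr1, had 6.76. No region of the list overlapped Pinlyp/Xrcc1 or 1300017J02Rik/Topbp1.

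Genes for mitochondrial proteins were also frequent in pairs. Of 97 genes of oxidative phosphorylation 23 (23.7%, 16.4% to 33.1%) were paired, of 78 genes of the mitochondrial ribosome 18 (23.1%, 15.1% to 33.6%), and of 32 genes of import and chaperones 5. Each of these pairs carried a region. The median was 5.37 log2 CPM for oxidative phosphorylation, with Tepsin/Ndufaf8 (6.42) and Uqcrh/Lrrc41 (6.40) the highest. It was 5.30 for the mitochondrial ribosome, with Mrpl41/Pnpla7 (6.92), Mrpl40/Hira (6.71) and Mrps18b/Ppp1r10 (6.43) the highest and the printed Mrpl50/Zfp189 at 6.30, and 4.89 for import, with Tomm6/Frs3 (6.13), Pqbp1/Timm17b (5.72) and Timm9/2700049A03Rik (4.89). All 3 medians were below the 5.61 of all members.

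Machinery of gene expression and protein turnover followed. Transcription and splicing genes had 18 of 91 in a pair (19.8%), led by Lnx2/Polr1d (6.42 log2 CPM), Srsf7/Ttc39d (6.38) and Gm28635/Med19 (6.21). Proteasome genes had 8 of 50, led by Psme2/Rnf31 (6.80), Cep76/Psmg2 (5.48) and Mrpl32/Psma2 (5.40), and 2 of their pairs, Ftsj3/Psmc5 and Psma7/Ss18l1, overlapped no region. Aminoacyl-tRNA synthetase genes had 5 of 34 (14.7%), with Mrps12/Sars2 (5.93) and S100pbp/Yars (5.75) among the highest. Genes of the cytosolic ribosome had 9 of 88 (10.2%, 5.47% to 18.3%), with a median of 4.48 and no region at Rnf151/Rps2. Their highest pair was Rpl36al/Mgat2 (6.34), followed by Med22/Rpl7a (5.74) and Iqcg/Rpl35a (5.08). The intervals of the last 2 lists included the 6.78% of all genes.

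Replication-dependent histone genes, which lie in clusters, had 27 of 67 in a pair (40.3%, 29.4% to 52.3%). In 13 of their 14 pairs both genes were histones, as at Hist1h2ac/Hist1h2bc (5.69), Hist1h2bh/Hist1h3f (5.52) and Hist1h2ah/Hist1h2bk (5.13). Regions overlapped 7 of these 13 pairs and 6 had none, although the CpG ratio around the middle was alike, with medians of 0.94 and 0.93. Histone genes are near-identical copies, and the authors discarded reads of low mapping quality, whose part in the missing regions was not tested. Zinc finger genes of the Zfp and Zscan families had 21 of 416 in a pair (5.05%, 3.33% to 7.59%), led by Zfp91/Lpxn, Zfp654/Cggbp1 and Zfp277/Dock4 (6.81). Their pairs Grik5/Zfp574 and Zfp558/Mbd3l1 overlapped no region. Of 45 genes with collagen symbols 3 were paired, Col4a3 and Col4a4 with each other and Col4a3bp, a ceramide transfer protein, with Polk (5.97).

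Lists of oxygen response and bone genes, the study's subject, held 1 gene in a divergent pair. Of 38 oxygen response genes 1 was paired (2.63%, 0.47% to 13.5%), and of 36 bone genes 0 (95% Wilson interval 0% to 9.64%), and both intervals include the 6.78% of all coding genes. The pair was Fam162a/Ccdc58 on chromosome 16, with starts 91 bp apart and a region of 1540 bp at 6.42 log2 CPM, equal to the median of the 21 members on that chromosome. Its stretch of 90 bp had a GC content of 80.0% and held 4 hypoxia response element cores.

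Of 22 head-to-head gene pairs known from earlier work, 10 met the rule. Pdcd10/Serpini1 (starts 691 bp apart), a vascular malformation gene and neuroserpin, had 6.79 log2 CPM, followed by Brca1/Nbr1 with 6.76. Mcm4/Prkdc on chromosome 16, a replicative helicase subunit and the DNA-dependent protein kinase, had 6.70, and Atm/Npat, a damage kinase and a coactivator of histone transcription, had 6.34. Mrps12/Sars2 had 5.93 and Toe1/Mutyh 5.56. Lower values were found at Tsc2/Nthl1 (4.96), a brake of the mTOR pathway and a base excision glycosylase, at Wrap53/Trp53 (4.48), where the region was 766 bp wide, and at Col4a4/Col4a3 (2.09). The 10 pairs ranked from 50 to 685 among the 688 pairs with a region.

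Pairs without a region in the list used here were mostly CpG-poor. Of 67 such pairs 1 was the mitochondrial pair mt-Nd6/mt-Cytb, whose reads the authors had discarded. Of the 66 nuclear pairs 47 were outside the CpG limits, among them Pecam1/Milr1, an endothelial adhesion gene and a mast cell receptor gene, Kirrel2/Nphs1, adhesion proteins of kidney podocytes, and Il11/Tmem190. Their nearest regions lay 62, 208 and 5068 bp away. The other 19 were CpG-rich, and 6 of them joined 2 histone genes. They also included Alyref/Anapc11, a messenger RNA export factor and a subunit of the anaphase-promoting complex, and Psma7/Ss18l1, whose nearest regions lay 60478 and 17168 bp away. The median distance to the nearest region was 13612 bp over the 66 pairs, 15 of them had a region within 1000 bp and 3 within 200 bp. The pairs named in this paragraph, other than those of the gene lists, were chosen after their values were seen.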

How the data were processed

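ATAC-seq of 11 MPC2 cultures was analysed from 1 deposited list of regions. The authors trimmed reads with Trim Galore, aligned them with Bowtie2 to mm10, removed duplicates with Picard 2.17.8, and left out mitochondrial reads and those that mapped with low quality. They called peaks with MACS2 2.2.7.1, merged them over samples, removed blacklisted regions, counted cuts with pyDNase, dropped regions with few cuts and normalised with edgeR 3.24.3. Tool names and versions follow the submitters' processing notes and the study's methods. A shift of read ends for Tn5 is not given in the sources used here, and 1 library that the authors removed for quality was not analysed. The width of a region follows from the peaks joined in it. The deposited log2 values were read as mean log2 CPM over all samples, because 2 to their power summed to 1012760 and 460 were below 0. The depth of each sample is unknown.

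Gene starts were the starts of GENCODE vM21 gene records, and sequence came from GRCm38.p6, the assembly of mm10. Coordinates are 1-based. A pair's level was that of its highest overlapping region. The level per kb is the level minus log2 of the width in kb. Motifs were searched on both strands. Medians have exact binomial and shares Wilson intervals at 95%, for counting error only. With 1 pooled value per region no test was run, and regions are not replicates. The pairs named were the 8 highest, the 5 widest, the 4 lowest members, known head-to-head pairs, pairs of oxygen and bone genes, and up to 3 of each other list, except a few pairs that are not reported here. The members and lists were chosen with earlier results of these data known. The alternatives changed the greatest distance, the start used, the width minimum, the chromosomes, the assignment of single promoters, the CpG limits, the bins and the motif windows. Pair finding, overlap, binned differences and motif search were tested on simulated data. Python 3.11.15 was used with pandas 2.3.3, NumPy 2.4.6 and SciPy 1.17.1.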

Additional observations from a re-analysis of the deposited data

How the results depend on the processing

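No paired analysis was possible because the regions carried no value per sample, and for the same reason no replicate could be left out. Depth per sample is unknown, so its limit on any value is too. With starts at most 300 bp apart, the median level of members was 5.51 log2 CPM and their difference to single CpG-rich promoters 0.16. That difference was 0.11 with single promoters of at least 60% GC and a ratio of at least 0.75. It was 0.52 within bins of the number of CpGs, in which width was not held equal, and 0.32 without the lowest of these bins. Both were chosen after seeing the data. The share of pairs whose region covered both starts was 99.2% at 500 bp and 99.6% at 300 bp. The difference between pairs over and at most 100 bp apart was 0.65, and 0.45 within 4 quartile groups of width. Its alternatives were all chosen after seeing the data, and with the most upstream start of coding transcripts it was 0.68. In the stretch between the starts alone, the divergent minus single share was 12.7 points for CCAAT, 9.58 for CCGGAA, 0.38 for the YY1 word (3.11 in the window) and -3.37 for GGGCGG (-6.99 to 0.21). Differences that changed sign were the E-box, -0.71 points in the 300-bp window and 0.39 in the stretch, and the hypoxia response element core, -0.42 points against 1.64 in the stretch and 1.99 with pairs that had a region. All other differences between classes or distances kept their sign under the alternatives run. Leaving out chromosome 16 gave a median of 5.58 and a difference of 0.25.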

Other observations

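Of the known head-to-head pairs that did not meet the rule, 10 had starts that overlap in the annotation, so that no stretch lies between them, and each carried a region. The highest was Ranbp1/Trmt2a, a Ran regulator and a tRNA methyltransferase, with an overlap of 53 bp and 6.98 log2 CPM. Hspd1/Hspe1, the mitochondrial chaperonin and its cofactor, had an overlap of 111 bp and 6.72. Ppat/Paics, both of purine synthesis, had 271 bp and 6.32. The collagen pair Col4a1/Col4a2, chains found in nearly all basement membranes, had 21 bp and 5.30, whereas the divergent pair Col4a4/Col4a3 had 2.09. The lowest was Surf1/Surf2 with 4.99. The pairs nearest the 1000 bp limit were Btf3l4/Txndc12 (987 bp, 5.97 log2 CPM) and Asphd1/Sez6l2 (981 bp, 3.51) inside it, and Serpina7/4930513O06Rik (1007 bp, no region in the list used here) and Gpr108/Trip10 (1009 bp, 7.23) outside it.

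Accessible neighbours were counted around the members and the single CpG-rich regions. No other region lay within 10000 bp of 37.6% (34.0% to 41.3%) of members and of 29.7% (28.6% to 30.9%) of single CpG-rich regions, with a median of 1 neighbour in both. By chromosome, the median level of members was above that of single CpG-rich regions on 16 of 20 chromosomes. The members stood highest on chromosome 16 (median 6.42 log2 CPM, 21 regions, single promoters 5.95) and lowest on chromosome 9 (4.84, 30 regions, single promoters 5.06). None of these differences was tested.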
